A study of Homo sapiens with 24 samples.

Results

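The Wnt ligands and target genes, 10 genes in all, were followed in SNU-449 cells and in PLC/PRF/5 cells, established lines derived from human hepatocellular carcinoma (HCC). They were the ligands *WNT5A*, *WNT5B* and *WNT11*, the secreted antagonist *DKK1*, the cytoplasmic components *AXIN1*, *AXIN2* and *NKD1*, the nuclear factors *LEF1* and *TCF7*, and the receptor *LGR5*. They were taken as every non-control probe of the array whose RefSeq accession belongs to one of these genes, which gave 12 probes of 58201 and 10 named genes of 31204. *AXIN2* and *TCF7* had 2 probes each. The data were 24 one-colour Agilent arrays of total RNA, with 4 groups of 3 arrays in each line. Cells were starved of serum overnight and then kept for 16 h as untreated controls (control), with recombinant human TGFβ1 at 1 ng/mL (TGFβ), with LY2157299 (galunisertib) at 10 µM, or with both (TGFβ + galunisertib). Galunisertib is a small molecule that blocks the kinase of the type 1 TGFβ receptor, so the treatments ask how the Wnt genes respond when that pathway is driven or blocked. The study states that it also inhibits the type I receptors of activin and nodal. Their part in the Wnt values was not tested. The 3 arrays of a group came from independent cultures, and each condition was studied in these 2 lines alone.

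Wnt ligands bind Frizzled receptors with LRP5 or LRP6 as co-receptors. In the canonical branch this holds back a cytoplasmic complex built on the scaffold AXIN1, which otherwise marks β-catenin for destruction, and β-catenin then switches on target genes together with TCF and LEF factors. *AXIN2*, *NKD1*, *LEF1*, *TCF7*, *DKK1* and *LGR5* are commonly read as targets of this branch, and AXIN2, NKD1 and DKK1 in turn restrain it, whereas WNT5A, WNT5B and WNT11 are mostly known for β-catenin-independent signalling. In the liver the pathway patterns zones of hepatocyte metabolism, and it is often activated in HCC.

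A level is given here as log2 of the processed signal over the 75th percentile of its array, so that 0 is a signal equal to that percentile. Signals under a floor at a log2 of −4.13, which is 5.70% of the percentile, were set to the floor and have no order among themselves. A probe was called well above background by the scanner software on each array separately. Levels of different probes were not set against each other, because probes differ in how strongly they bind. A gene passed a comparison when its Benjamini-Hochberg adjusted p in the limma fit over all genes tested was under 0.05.

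Across the 24 arrays the 75th percentile ranged from 145 to 262 intensity units, and the share of probes well above background from 41.6% to 49.6%. Each group occupied the same position on all 3 slides, and the arrays with TGFβ lay in the second row of each slide and those without it in the first, so that slide row and TGFβ cannot be told apart. PLC/PRF/5 arrays lay in column 1 without galunisertib and in column 2 with it, and SNU-449 arrays in columns 3 and 4. Slide column therefore cannot be told apart from galunisertib or from the line. The lines carried the markers of their labels unevenly. Of 6 hepatocyte genes all 6 were well above background on the 3 control arrays of PLC/PRF/5, whereas *ALB* and *APOB* were on 0 of 3 in SNU-449. All 4 epithelial genes were higher in PLC/PRF/5, *EPCAM* with 0 of 3 SNU-449 controls well above background. Of 4 mesenchymal genes 3 were higher in SNU-449, *COL1A1* with 0 of 3 PLC/PRF/5 controls well above background, and *PDGFRB* was lower there. Of the markers of blood and endothelial cells, *PTPRC* was well above background on 23 of 24 arrays, *CDH5* on 13, *CD3E* on 4 and *PECAM1* on 0. As a check of the treatments, *SMAD7*, which encodes an inhibitory SMAD and is switched on by the TGFβ receptor, rose with TGFβ by 0.80 in PLC/PRF/5 and by 0.65 in SNU-449 on the log2 scale, and fell with galunisertib by 0.44 and 1.90, respectively. Its spot lies near the edge of the array. Of 4 TGFβ response genes listed, *SMAD7* among them, TGFβ alone raised 3 of the 3 tested in PLC/PRF/5 and 3 of 4 in SNU-449. Galunisertib alone lowered 2 of 3 and 4 of 4, respectively. With TGFβ + galunisertib against galunisertib alone, 0 of 3 passed in PLC/PRF/5. In SNU-449 4 of 4 were higher (median log2 difference 1.74), so there these genes still differed with TGFβ under galunisertib.

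Promoter windows of 300 bases, from 250 before to 50 after an annotated start, were found in RefSeq (GRCh38.p14) for 6 of the 10 genes, as 9 windows. The 5 windows of *DKK1*, *WNT5B* and *TCF7* are shown because these genes passed with TGFβ in SNU-449 cells, *DKK1* falling while the others rose. *AXIN2*, which also passed there, had no window. Capitals mark CAGAC or its reverse complement GTCTG, a core that SMAD proteins bind, read 5′ to 3′ on the gene's strand.
DKK1, window 1 (chr10:52314031-52314330, + strand): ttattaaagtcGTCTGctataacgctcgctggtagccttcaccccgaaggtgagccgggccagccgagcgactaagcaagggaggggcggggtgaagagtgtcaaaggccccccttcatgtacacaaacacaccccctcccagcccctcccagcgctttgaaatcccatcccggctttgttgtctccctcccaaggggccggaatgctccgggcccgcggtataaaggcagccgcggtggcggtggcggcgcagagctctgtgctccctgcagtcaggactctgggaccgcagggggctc
WNT5B, window 1 (chr12:1616806-1617105, + strand): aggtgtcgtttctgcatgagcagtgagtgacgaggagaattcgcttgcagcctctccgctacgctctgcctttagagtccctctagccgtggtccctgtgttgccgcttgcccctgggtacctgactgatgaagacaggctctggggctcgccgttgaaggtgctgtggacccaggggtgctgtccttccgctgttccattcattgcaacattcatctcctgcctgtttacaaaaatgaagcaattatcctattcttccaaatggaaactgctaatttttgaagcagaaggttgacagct
WNT5B, window 2 (chr12:1628981-1629280, + strand): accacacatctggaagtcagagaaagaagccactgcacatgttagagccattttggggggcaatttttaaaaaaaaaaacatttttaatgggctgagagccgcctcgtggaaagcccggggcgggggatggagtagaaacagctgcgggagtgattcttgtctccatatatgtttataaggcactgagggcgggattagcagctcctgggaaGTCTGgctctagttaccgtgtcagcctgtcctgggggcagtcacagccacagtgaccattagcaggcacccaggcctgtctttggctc
TCF7, window 1 (chr5:134115363-134115662, + strand): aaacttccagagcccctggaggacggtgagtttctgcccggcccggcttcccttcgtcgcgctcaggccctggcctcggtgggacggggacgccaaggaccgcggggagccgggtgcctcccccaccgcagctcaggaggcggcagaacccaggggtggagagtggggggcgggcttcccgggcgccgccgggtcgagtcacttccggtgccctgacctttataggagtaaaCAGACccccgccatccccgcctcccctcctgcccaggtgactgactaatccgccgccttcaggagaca
TCF7, window 2 (chr5:134123368-134123667, + strand): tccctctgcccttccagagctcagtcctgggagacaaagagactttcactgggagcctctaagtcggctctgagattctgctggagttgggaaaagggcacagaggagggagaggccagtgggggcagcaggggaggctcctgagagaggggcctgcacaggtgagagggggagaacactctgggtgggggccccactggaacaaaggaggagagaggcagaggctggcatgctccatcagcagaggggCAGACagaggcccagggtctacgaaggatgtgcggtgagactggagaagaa
The SMAD letters were present in the windows of 3 of the 6 genes, namely *DKK1*, *WNT5B* (the second window) and *TCF7* (both windows), and in 45.3% of the 35116 windows of this length. Genes with several windows had more chances to hold the letters, so a share of genes and a share of windows are unlike measures. ATCAAAG, a TCF/LEF core, and TGACTCA, an AP-1 core, were searched on both strands too. Neither was found in the 9 windows, while 2.62% and 4.95% of all windows held them. No matches overlapped, and a match only describes the letters.

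At basal level the lines differed in which Wnt genes could be measured at all. *WNT5A* and *WNT5B* were well above background on 12 of 12 SNU-449 arrays and on 0 of 12 PLC/PRF/5 arrays. The reverse held for *LEF1* and *LGR5*, on 12 of 12 PLC/PRF/5 arrays and on 0 of 12 SNU-449 arrays. *DKK1*, *AXIN2* and *TCF7* were measured on all 24 arrays, *AXIN1* on 12 of 12 in PLC/PRF/5 and 9 of 12 in SNU-449, and *NKD1* on 5 of 12 in PLC/PRF/5 and 0 of 12 in SNU-449. Of the 10 genes, 8 passed between the control groups, 4 higher in SNU-449 and 4 higher in PLC/PRF/5. Over the 17902 genes tested the share was 68.5% (34.6% higher and 33.9% lower in SNU-449), so that passing was common in this comparison. As in any bulk RNA measurement, fewer cells with a transcript and less of it per cell cannot be told apart. *WNT5A*, *WNT5B*, *LEF1* and *LGR5* entered the fit only through the line in which they are bright and had to differ. Their passing supports nothing, and no p is given for their difference between the lines. Of the 5 genes measured in both lines 4 passed, 2 higher and 2 lower in SNU-449. With a fold above 2 and an unadjusted limma P under 0.001, the limits of the study's figures, 7 of the 10 passed, beside 34.3% of all genes. Of those 5 genes 3 did. The study's lists of galunisertib genes state a looser P limit. The median log2 difference (SNU-449 minus PLC/PRF/5) of the 10 genes was 0.19, also with the genes measured in a single line set at their bound, and that of all genes was −0.06.

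**Figure D1:**
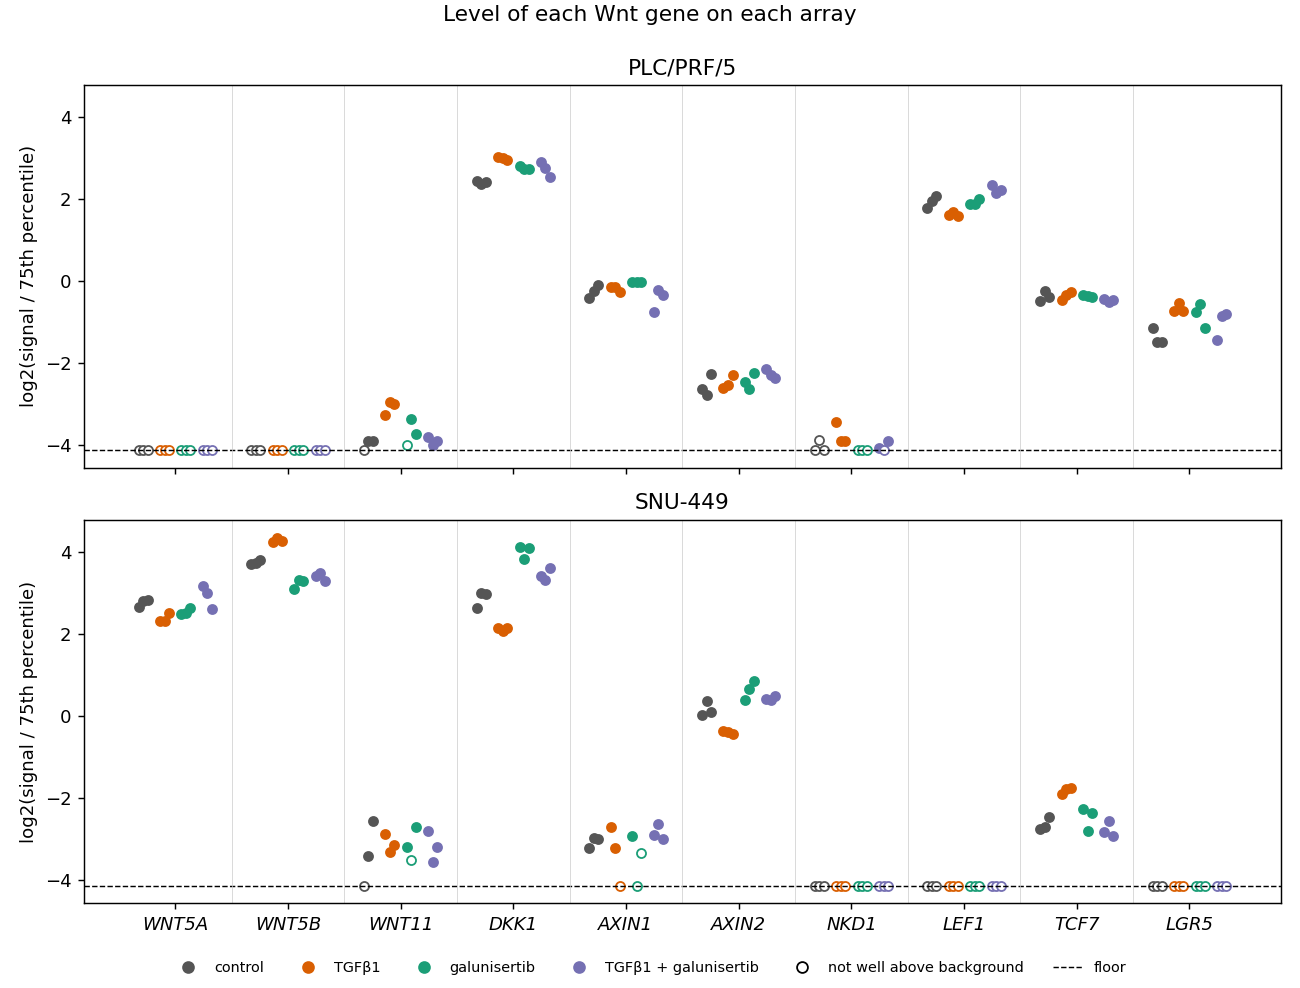
Log2 level (signal over the 75th percentile of the array, vertical axis) of each Wnt gene (horizontal axis) on each of the 12 arrays of PLC/PRF/5 (top) and of SNU-449 (bottom), coloured by treatment. Open points were not well above background and the dashed line is the floor at −4.13. *WNT5A* and *WNT5B* lie at the floor on 12 of 12 PLC/PRF/5 arrays, and *LEF1*, *LGR5* and *NKD1* on 12 of 12 SNU-449 arrays.

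Among the ligands, *WNT5A* levels in the SNU-449 controls were 2.66, 2.79 and 2.83 on the log2 scale, and all PLC/PRF/5 controls were at the floor. Where 0 of the 3 arrays of a group passed the background call, the fold is a lower bound. It was taken as the mean of the bright group over the weakest signal that passed the call on each dim array, or over the probe's own signal if that was higher. *WNT5A* was at least 106.5-fold higher in SNU-449. *WNT5B* levels were 3.71, 3.73 and 3.81 in the SNU-449 controls, at least 212-fold higher than in PLC/PRF/5. *WNT11* was dim in both lines, with control levels of −4.13, −3.90 and −3.90 in PLC/PRF/5 and of −4.13, −3.40 and −2.55 in SNU-449. These groups overlapped, and the difference of 0.62 ± 0.29 (SE) did not pass (adjusted p = 0.0677). Without replicate 1 of the SNU-449 controls, the array at the floor, it was 1.00 and passed.

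The genes higher in PLC/PRF/5 included both nuclear factors. *LEF1*, which binds DNA and recruits β-catenin, had levels of 1.78, 1.95 and 2.07 in the PLC/PRF/5 controls and lay at the floor in SNU-449, an at least 67.0-fold difference. *TCF7*, a factor of the same family, had levels of −0.48, −0.24 and −0.40 in PLC/PRF/5 and of −2.75, −2.70 and −2.46 in SNU-449. It was 4.80-fold higher in PLC/PRF/5 (log2 difference −2.26 ± 0.12, adjusted p = 1.69e-12). Its second probe gave −1.64, limited by the floor, being well above background on 0 of 3 SNU-449 controls and 2 of 3 PLC/PRF/5 controls. The control arrays of the lines did not overlap for *TCF7*, while *LEF1*, at the floor in SNU-449, had to differ. *LGR5*, a receptor for R-spondins and a stem cell marker of several epithelia, had levels of −1.15, −1.48 and −1.49 in PLC/PRF/5, at least 6.76-fold higher than in SNU-449.

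*AXIN1* and *AXIN2*, which encode scaffolds of the same complex, differed in opposite directions. *AXIN1* levels were −0.41, −0.26 and −0.09 in the PLC/PRF/5 controls and −3.20, −2.96 and −2.99 in the SNU-449 controls, a 6.96-fold excess in PLC/PRF/5 (log2 difference −2.80 ± 0.28, adjusted p = 2.95e-08). *AXIN2*, the scaffold that is itself a target of the pathway, had levels of −2.63, −2.78 and −2.28 in PLC/PRF/5 and of 0.02, 0.36 and 0.09 in SNU-449. It was 6.59-fold higher in SNU-449 (log2 difference 2.72 ± 0.14, adjusted p = 7.64e-13), and its second probe gave 2.06. *DKK1*, which blocks LRP5 and LRP6, was bright in both lines, with levels of 2.42, 2.36 and 2.40 in PLC/PRF/5 and of 2.63, 2.99 and 2.97 in SNU-449. These arrays did not overlap, and the difference was small (0.47 ± 0.11, 1.39-fold, adjusted p = 0.000703). *NKD1*, which binds Dishevelled, was not well above background in the controls of either line. It was tested through the TGFβ arrays of PLC/PRF/5 and did not pass, and its spot lies in the outermost row of the array, where no other member lies.

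Because controls and treatments shared arrays, the comparisons within a line are not independent. Differences with TGFβ or galunisertib were taken against the same 3 controls, and differences of TGFβ + galunisertib were taken against TGFβ alone and against galunisertib alone. In PLC/PRF/5, 8 of the 10 genes could be tested, since *WNT5A* and *WNT5B* were at the floor, and in SNU-449 7 could be, since *LEF1*, *LGR5* and *NKD1* were.

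TGFβ raised the ligand *WNT11*, the antagonist *DKK1* and the receptor *LGR5* in PLC/PRF/5 cells and lowered the nuclear factor *LEF1*. Thus 4 of the 8 genes tested passed, beside 13.5% of the 16684 genes tested, with 3 higher (6.27% of all genes) and 1 lower (7.24% of all genes). The median log2 difference was 0.19 for the 8 genes and −0.04 for all genes. None of the 4 reached a fold above 2 with an unadjusted P under 0.001, the limits that 1.10% of all genes passed.

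*WNT11* levels in PLC/PRF/5 rose from −4.13, −3.90 and −3.90 in the controls to −3.26, −2.95 and −3.00 with TGFβ. The groups did not overlap, although all arrays were close to the floor, and the difference was 0.91 ± 0.15 (SE; 1.88-fold, adjusted p = 0.00323). With normexp background correction it was 0.20 and did not pass. *DKK1* levels rose from 2.42, 2.36 and 2.40 to 3.03, 2.98 and 2.93, again with all TGFβ arrays above all controls (0.59 ± 0.09, 1.50-fold, adjusted p = 0.00195). Scaled to the array median the rise of *DKK1* was 0.62 (adjusted p = 0.0996) and without scaling it was 0.84 (adjusted p = 0.0550).

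*LGR5* levels in PLC/PRF/5 rose from −1.15, −1.48 and −1.49 to −0.74, −0.53 and −0.73 with TGFβ (0.71 ± 0.19, 1.63-fold, adjusted p = 0.0342). *LEF1* levels were 1.78, 1.95 and 2.07 in the controls and 1.60, 1.69 and 1.58 with TGFβ, a fall by 0.31 ± 0.09 (1.24-fold, adjusted p = 0.0416). For both genes the groups did not overlap, but the calls were close to the threshold. Each was lost without any single TGFβ array and without control replicate 2 or 3, with values between 0.64 and 0.74 for *LGR5* and between −0.35 and −0.25 for *LEF1*. With the replicate number as a block the adjusted p of *LEF1* was 0.0652, and its difference was −0.28 with array-median scaling (adjusted p = 0.662) and −0.06 without scaling.

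The remaining genes did not pass with TGFβ in PLC/PRF/5. *NKD1* was well above background on 3 of 3 TGFβ arrays, at −3.45, −3.89 and −3.91, and on 0 of 3 controls (adjusted p = 0.152). *AXIN1* differed by 0.06 ± 0.13 and *TCF7* by 0.01 ± 0.08, and the other probe of *TCF7* gave 0.59. The probes of *AXIN2* pointed in opposite directions, 0.08 and −0.48. Hepatocyte genes moved in the same comparison, with 3 of 6 lower (*ALB* at −0.94 and *APOB* at −0.66 among them). Their summed signal, in multiples of the 75th percentile, was 438 to 704 in the controls and 493 to 619 with TGFβ. Such sums add different probes and mostly follow the brightest. In the PLC/PRF/5 controls these were *SERPINA1* of the hepatocyte genes (mean log2 level 8.78), *KRT18* of the epithelial ones (8.63) and *VIM* of the mesenchymal ones (7.31). Of the markers of blood and endothelial cells *CDH5* was lower (−0.90), and the 4 with probes summed to 0.376 to 0.464 in the controls and 0.289 to 0.390 with TGFβ. The part of these genes in the Wnt values was not tested.

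Galunisertib alone changed a single gene of the 8 in PLC/PRF/5, *DKK1*, beside 5.42% of all genes (3.67% higher). With a fold above 2 and an unadjusted P under 0.001 it was 0 of 8, beside 0.342% of all genes. *DKK1* levels were 2.79, 2.72 and 2.74 with galunisertib, above the 3 controls and below the 3 TGFβ arrays. The difference from the controls was 0.36 ± 0.09 (1.28-fold, adjusted p = 0.0458). Against the same controls its difference with TGFβ was 0.59. The call was lost without any 1 of the 6 arrays, with values between 0.34 and 0.37, and with the replicate number as a block (adjusted p = 0.0521). *LGR5* levels of −0.75, −0.56 and −1.16 overlapped the controls by 1 array (0.55 ± 0.19, adjusted p = 0.118). *AXIN1*, at −0.03, −0.03 and −0.02, lay above its controls by 0.23 ± 0.13 (adjusted p = 0.328). The median over the 8 genes was 0.17 and over all genes 0.05. Of the marker lists, 2 of 4 epithelial genes were higher, 2 of 6 hepatocyte genes lower, and of 3 mesenchymal genes tested 1 was higher and 1 lower. The summed epithelial signal was 469 to 527 in the controls and 669 to 700.0 with galunisertib, the mesenchymal one 148 to 176 and 197 to 220.3, and the hepatocyte one 438 to 704 and 462 to 482. Their part in the Wnt values was not tested.

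When galunisertib was given with TGFβ in PLC/PRF/5, *WNT11* and *DKK1* were lower than with TGFβ alone and *LEF1* was higher. These 3 of 8 genes passed, beside 39.1% of all genes (25.8% higher and 13.3% lower), and the median was −0.25 for the 8 genes and 0.06 for all genes. *WNT11* levels were −3.81, −4.00 and −3.91 with both agents, close to the controls and below all TGFβ arrays (−0.84 ± 0.15, adjusted p = 0.00158). With normexp background correction the *WNT11* difference was −0.20 and did not pass. *LEF1* levels were 2.33, 2.14 and 2.20, above every TGFβ array and also above every control array (0.60 ± 0.09 against TGFβ, 1.52-fold, adjusted p = 0.000515). Without scaling the *LEF1* difference did not pass (adjusted p = 0.180). In the same comparison 3 of 6 hepatocyte genes and 1 of 4 epithelial genes were higher, and of 3 mesenchymal genes tested 1 was higher and 1 lower. The summed epithelial signal was 481 to 512 with TGFβ and 562 to 586 with both agents, the mesenchymal one 159 to 188 and 190.5 to 209.7, and the hepatocyte one 493 to 619 and 461 to 511. Their part in the Wnt values was not tested.

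*DKK1* with both agents was at 2.89, 2.75 and 2.53 in PLC/PRF/5, below the TGFβ arrays by 0.26 ± 0.09 (adjusted p = 0.0407). The *DKK1* call was lost without replicate 2 or 3 of TGFβ + galunisertib or any single TGFβ array, with values between −0.28 and −0.16. With array-median scaling the difference was −0.08 (adjusted p = 0.796), and the call was also lost with normexp, no scaling, the authors' values, no filter on dim probes, only the arrays compared and the methods' t-test. *LGR5* was spread over −1.44, −0.86 and −0.81, below the 3 TGFβ arrays (−0.37 ± 0.19, adjusted p = 0.159), and *NKD1* was well above background on 2 of 3 arrays (−0.29 ± 0.13, adjusted p = 0.0945). Against galunisertib alone, 0 of the 8 genes passed in the limma fit, beside 8.55% of all genes, and 2 had an unadjusted p under 0.05. These were *LEF1*, higher by 0.31 ± 0.09 (adjusted p = 0.0549), and *AXIN1*, at −0.41 ± 0.13 (adjusted p = 0.0725). The methods' t-test also gave 0 of 8.

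**Figure D2:**
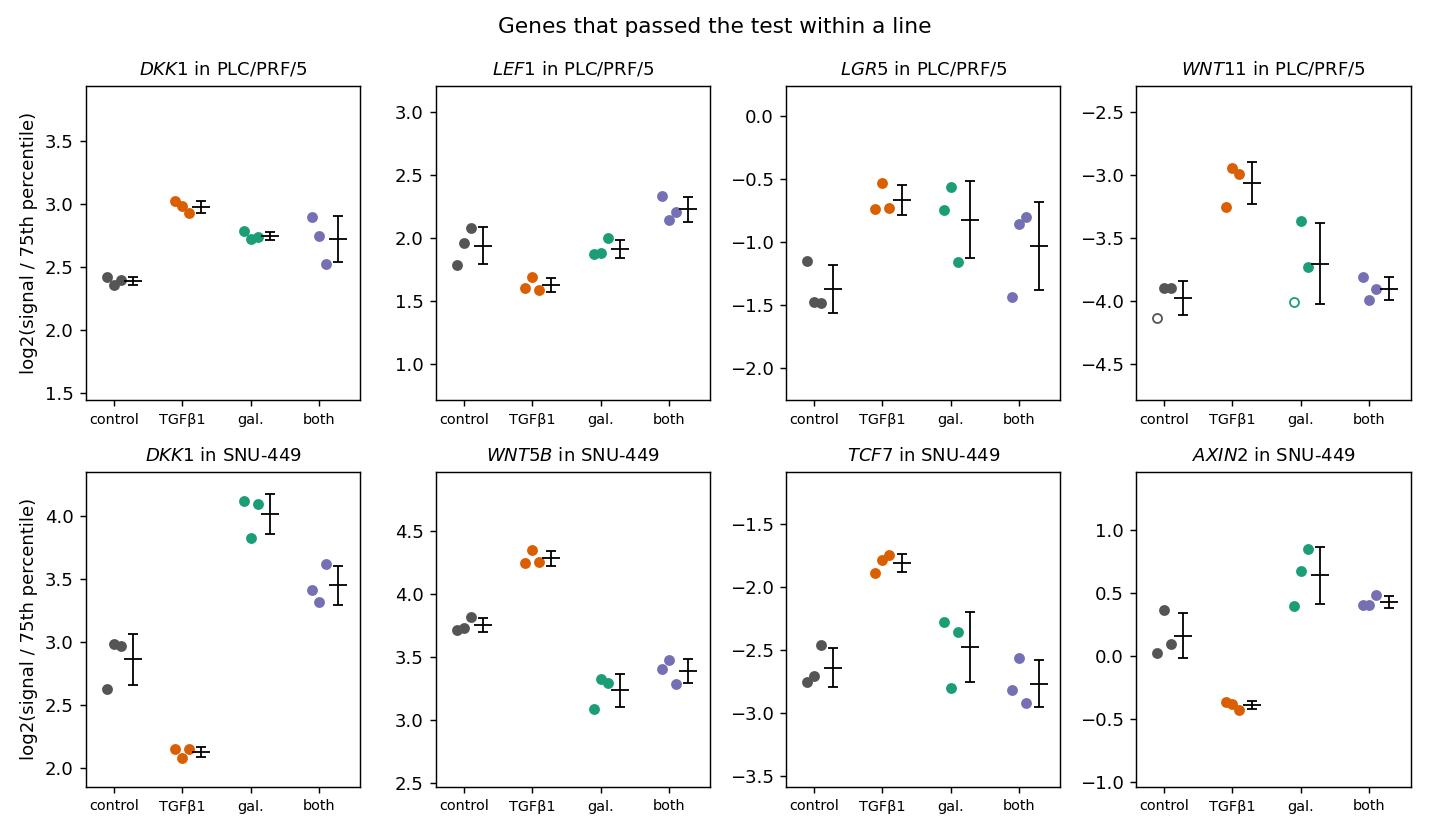
Log2 level (vertical axis, each panel spanning 2.5 log2 units) by treatment (horizontal axis) for the genes that passed in PLC/PRF/5 (*DKK1*, *LEF1*, *LGR5* and *WNT11*) and, except *WNT5A*, in SNU-449 (*DKK1*, *WNT5B*, *TCF7* and *AXIN2*). Points are single arrays, and bars are the mean ± SD of 3 arrays. *DKK1* rises with TGFβ in PLC/PRF/5, from 2.39 to 2.98, and falls in SNU-449, from 2.86 to 2.13.

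In SNU-449 cells TGFβ raised the ligand *WNT5B* and the nuclear factor *TCF7*, and lowered *DKK1* and *AXIN2*, both of them restraints on the canonical branch. Of the 7 genes tested 4 passed, beside 10.5% of the 16101 genes tested, with 2 higher (5.73% of all genes) and 2 lower (4.75% of all genes). The median log2 difference was −0.30 for the 7 genes and 0.02 for all genes. None of the 4 passed the limits of a fold above 2 and an unadjusted P under 0.001, beside 2.33% of all genes.

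*WNT5B* levels in SNU-449 were 3.71, 3.73 and 3.81 in the controls and 4.24, 4.35 and 4.25 with TGFβ (0.53 ± 0.09, 1.45-fold, adjusted p = 0.00410). *TCF7* levels were −2.75, −2.70 and −2.46 in the controls and −1.89, −1.78 and −1.75 with TGFβ (0.83 ± 0.15, 1.78-fold, adjusted p = 0.00572). For both genes every TGFβ array was above every control. The other probe of *TCF7*, well above background on 2 of 12 SNU-449 arrays, gave 0.21. *WNT5A*, the ligand closest to WNT5B in sequence, did not pass. Its levels were 2.66, 2.79 and 2.83 in the controls and 2.31, 2.31 and 2.50 with TGFβ, lower than every control (−0.38 ± 0.14, adjusted p = 0.107).

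*DKK1* levels in SNU-449 fell from 2.63, 2.99 and 2.97 to 2.15, 2.08 and 2.15 with TGFβ, with no overlap (−0.73 ± 0.13, 1.66-fold lower, adjusted p = 0.00435). Scaled to the array median the *DKK1* difference was −0.64 (adjusted p = 0.168) and without scaling −0.60 (adjusted p = 0.0994). *AXIN2* levels fell from 0.02, 0.36 and 0.09 to −0.37, −0.38 and −0.43, also with no overlap (−0.55 ± 0.12, 1.47-fold lower, adjusted p = 0.0174), and the other *AXIN2* probe gave −0.98. The *AXIN2* call was lost without any single TGFβ array and without control replicate 2, with values between −0.56 and −0.45, and with array-median scaling (−0.46, adjusted p = 0.234). *AXIN1*, at −2.71, −3.22 and −4.13, and *WNT11*, at −2.87, −3.30 and −3.13, overlapped their controls. Among the cell type markers, 2 of the 3 epithelial genes tested were lower with TGFβ, the cadherin gene *CDH1* (which fell by 2.00) among them, and 1 of 4 mesenchymal genes, *COL1A1*, was higher (0.92). The epithelial list summed to 72.1 to 86.7 times the 75th percentile in the controls and 53.2 to 56.4 with TGFβ, and the mesenchymal list to 529 to 611 and 577 to 602. Their part in the Wnt values was not tested.

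Galunisertib alone raised *DKK1* and *AXIN2* and lowered *WNT5B* in SNU-449, against the same controls as TGFβ. These were 3 of 7 genes, beside 7.43% of all genes (5.35% higher and 2.08% lower), and the median was 0.16 for the 7 genes and 0.09 for all genes. *DKK1* reached 4.12, 3.83 and 4.10, the highest of the 4 groups (1.15 ± 0.13, 2.22-fold, adjusted p = 0.000788). It was the member that also passed a fold above 2 with an unadjusted P under 0.001, beside 1.14% of all genes, but with the methods' t-test its adjusted p was 0.0795. *WNT5B* fell to 3.08, 3.33 and 3.29, below every control (−0.52 ± 0.09, 1.43-fold lower, adjusted p = 0.00937). With array-median scaling the *WNT5B* difference was −0.46 (adjusted p = 0.249).

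*AXIN2* levels in SNU-449 were 0.40, 0.67 and 0.85 with galunisertib, above the 3 controls (0.48 ± 0.12, 1.39-fold, adjusted p = 0.0446), and the other probe gave 0.25. The *AXIN2* call was lost without galunisertib replicate 2 or 3 or control replicate 1 or 3, with values between 0.37 and 0.46, and with the replicate number as a block (adjusted p = 0.0554). *TCF7*, at −2.28, −2.80 and −2.35, did not pass (0.16 ± 0.15), nor did *WNT5A* (−0.21 ± 0.14), *WNT11* (0.23 ± 0.36) or *AXIN1* (−0.41 ± 0.36). In this comparison 1 of 3 epithelial genes tested, *CDH1*, was higher (1.82), and of 4 mesenchymal genes *SPARC* was higher (0.45) and *COL1A1* lower (−2.61). The epithelial list summed to 82.9 to 95.2 and the mesenchymal list to 290.4 to 498 with galunisertib. Their part in the Wnt values was not tested.

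With TGFβ + galunisertib, 5 of the 7 genes differed from TGFβ alone in SNU-449, beside 17.1% of all genes (9.72% higher and 7.35% lower). *DKK1*, *AXIN2* and *WNT5A* were higher and *WNT5B* and *TCF7* lower, and the median was 0.51 for the 7 genes and 0.01 for all genes. *DKK1* levels were 3.41, 3.32 and 3.62, above the TGFβ arrays and also above the controls (1.32 ± 0.13 against TGFβ, 2.50-fold, adjusted p = 6.89e-05). It also passed a fold above 2 with an unadjusted P under 0.001, as 3.81% of all genes did. *AXIN2* was at 0.40, 0.40 and 0.48, above every TGFβ and control array (0.82 ± 0.12, adjusted p = 0.00123), and the other probe gave 1.09. *WNT5B* was at 3.40, 3.48 and 3.29, below every TGFβ and control array (−0.89 ± 0.09, 1.86-fold lower, adjusted p = 0.000100).

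*TCF7* with both agents in SNU-449 was at −2.81, −2.56 and −2.92, within the range of the controls on 1 array and below it on the others, and below every TGFβ array (−0.96 ± 0.15, 1.94-fold lower, adjusted p = 0.00161), and its other probe gave −0.25. *WNT5A* levels were 3.17, 2.99 and 2.60, above the TGFβ arrays (0.54 ± 0.14, 1.46-fold, adjusted p = 0.0200). The *WNT5A* call was lost without replicate 1 or 2 of either group, with values between 0.42 and 0.51, and with array-median scaling (0.38, adjusted p = 0.320). In the same comparison 2 of 3 epithelial genes tested were higher and 1 of 4 mesenchymal genes lower, with summed signals of 53.2 to 56.4 with TGFβ and 74.4 to 80.5 with both agents for the epithelial list and of 577 to 602 and 341 to 462 for the mesenchymal one. Their part in the Wnt values was not tested. Against galunisertib alone, 0 of 7 genes passed in the limma fit, beside 1.90% of all genes, and 2 had an unadjusted p under 0.05. *DKK1* was lower by 0.56 ± 0.13 with no overlap (adjusted p = 0.0551) and passed without TGFβ + galunisertib replicate 3, when it was −0.65, or without galunisertib replicate 2, when it was −0.66. *WNT5A* was higher by 0.37 ± 0.14 (adjusted p = 0.203) and passed without TGFβ + galunisertib replicate 3, when it was 0.53. The methods' t-test gave 0 of 7.

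The treatments were next compared between the lines, over the 5 genes measured in both, *WNT11*, *AXIN1*, *AXIN2*, *DKK1* and *TCF7*. The difference in the TGFβ response (SNU-449 minus PLC/PRF/5) passed for 2 of the 5, beside 8.62% of the 17902 genes tested. *DKK1* rose in one line and fell in the other, and the responses differed by −1.32 ± 0.15 (adjusted p = 7.91e-06). *TCF7* rose with TGFβ in SNU-449 and not in PLC/PRF/5 (0.82 ± 0.17, adjusted p = 0.00367), but this rested on 1 of its 2 probes, the other giving −0.38. The mean of both probes gave 0.22 for *TCF7* and did not pass, nor did its value with array-median scaling (0.89, adjusted p = 0.123). *AXIN2* differed by −0.63 ± 0.20 (adjusted p = 0.0518). It passed without SNU-449 control replicate 1, at −0.70, without PLC/PRF/5 control replicate 3, at −0.77, and with the replicate number as a block (adjusted p = 0.0425). The other *AXIN2* probe gave −0.50 and was lower with TGFβ in both lines (−0.98 in SNU-449 and −0.48 in PLC/PRF/5). *WNT11* (−0.65 ± 0.41) and *AXIN1* (−0.36 ± 0.40) did not pass.

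For galunisertib, the response differed between the lines in 1 of the 5 genes, beside 5.87% of all genes. *DKK1* rose more in SNU-449, by 0.80 ± 0.15 (adjusted p = 0.00333), with 1.15 there against 0.36 in PLC/PRF/5. Scaled to the array median the difference was 0.76 (adjusted p = 0.313) and without scaling 0.62 (adjusted p = 0.530). *AXIN2* (0.37 ± 0.20), *TCF7* (0.16 ± 0.17), *WNT11* (−0.04 ± 0.41) and *AXIN1* (−0.64 ± 0.40) did not pass. The controls enter the TGFβ and the galunisertib responses alike, so these results are not independent.

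**Figure D3:**
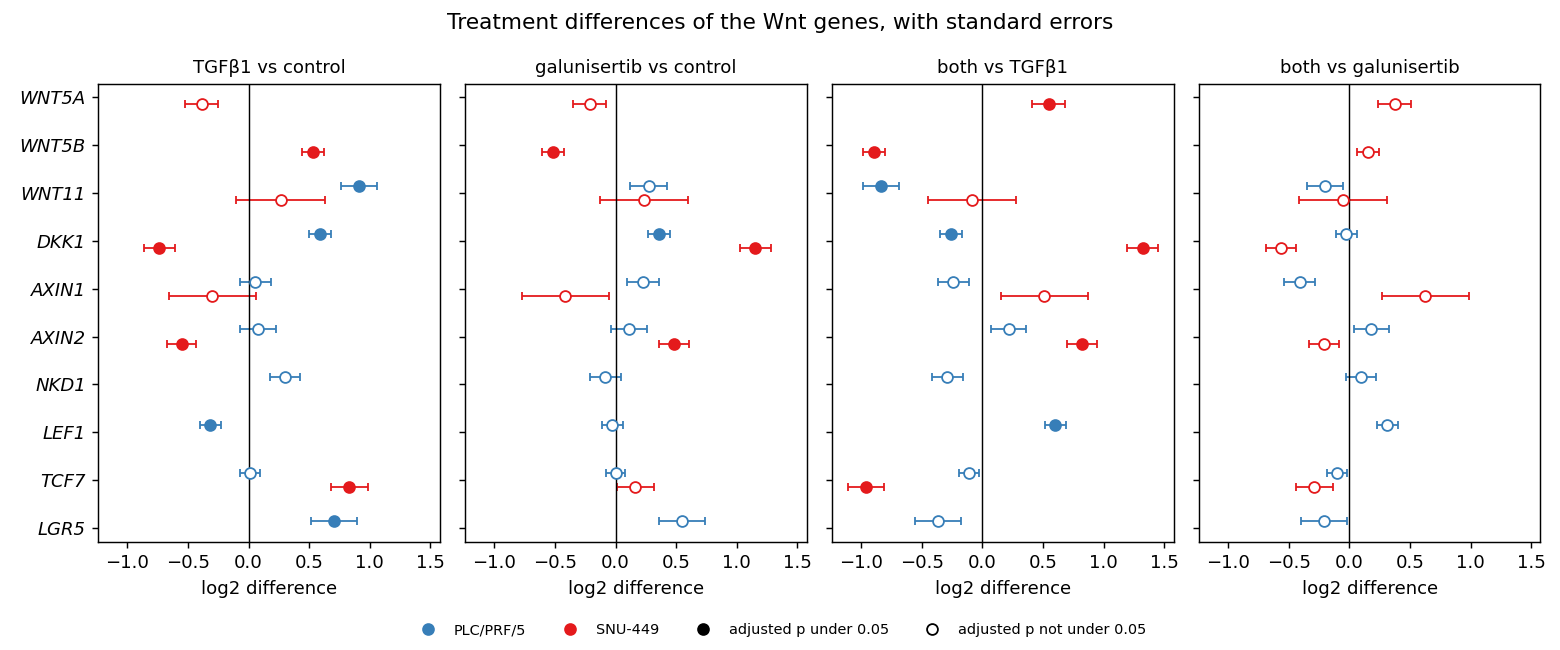
Log2 difference ± SE (horizontal axis) of each Wnt gene tested (vertical axis) in the 4 treatment comparisons of each line, with filled points where the adjusted p was under 0.05. The widest differences are those of *DKK1* in SNU-449, 1.15 with galunisertib and 1.32 with TGFβ + galunisertib against TGFβ.

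The genes whose levels followed each passing gene most closely were named by Pearson's r over the 12 arrays of a line, as a description, since the arrays share their groups. For *DKK1* in SNU-449 they were *ERAP2* (0.995), *SERPINF1* (0.990) and *CYB5A* (0.990), and in PLC/PRF/5 *APBB1IP* (0.961), *CSNK1G2* (0.935) and *CASTOR1* (0.931). *WNT5B* in SNU-449 was followed by *GDF6* (0.987) and *NOG* (0.983), and *AXIN2* by *PTPRD* (0.984), *OGDHL* (0.980) and *RDM1* (0.979). *TCF7* was followed by *KDM5B* (0.963), *MYDGF* (0.963) and *SIAH2* (0.962), and *WNT5A* more loosely by *SOWAHC* (0.878), *PNPLA7* (0.874) and *lnc-CLGN-2* (0.858). In PLC/PRF/5, *LEF1* was followed by *ETNPPL* (0.971), *HADH* (0.970) and *FNDC3A* (0.968), and *WNT11* by *LINC01876* (0.962), *FES* (0.940) and *BASP1* (0.914). *LGR5* was followed by *GAD1* (0.887), *DTX3L* (0.886) and *TNFRSF12A* (0.843).

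Beyond these 10 genes, 90 other genes of the pathway were listed (ligands and their secretion, receptors, secreted inhibitors, cytoplasmic components, nuclear factors and other targets), of which 88 had probes. Between the controls 56 of the 65 tested passed, 30 higher and 26 lower in SNU-449. Of all genes 68.5% passed (34.6% higher and 33.9% lower). Both shares include genes bright in only SNU-449 or only PLC/PRF/5, which entered the fit through that line and had to differ. Their number is not given, so the shares cannot show whether the list differed more often than genes in general. Genes with an at least bound below are of this kind, and their passing supports nothing. The median of the 65 genes, −0.05, was close to that of all genes. Higher in SNU-449 were the target *CD44* (at least 1291-fold), the corepressor *TLE4* (6.78 on the log2 scale), *DACT1*, which binds Dishevelled (at least 87.9-fold), *WLS*, which carries Wnt proteins to the cell surface (at least 46.7-fold), and the ligand *WNT2* (at least 24.8-fold). Higher in PLC/PRF/5 were *RNF43*, a ligase that removes Frizzled receptors (−6.25), the receptors *ROR1* (at least 54.2-fold) and *FZD5* (−4.28), the target *SP5* (−4.19) and the secreted inhibitor *WIF1* (at least 17.2-fold). *DACT1* and *WNT2* have spots near the edge of the array.

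With TGFβ, 8 of 60 listed genes passed in PLC/PRF/5, 6 higher and 2 lower, beside 13.5% of all genes, so that the list was called about as often as genes in general. The receptor *FZD8* rose by 0.83 ± 0.09, and *APC2* (0.55), *APC* (0.55), *TCF7L1* (0.52) and *DACT3* (0.50) rose with it, while the target *MYC* fell by 0.78 ± 0.19 and *NKD2* by 0.34. In SNU-449 10 of 60 passed, 5 higher and 5 lower, beside 10.5% of all genes. *DACT3* rose by 1.07 ± 0.19, the corepressor *TLE1* by 1.02 ± 0.10, *SP5* by 0.84, *TCF7L1* by 0.78 and *DVL1* by 0.57. The ligand *WNT2B* fell by 0.91 ± 0.19, *NKD2* by 0.72, *FZD4* by 0.62, *TLE4* by 0.44 and *ZNRF3* by 0.30.

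With galunisertib 3 of 60 passed in PLC/PRF/5, beside 5.42% of all genes, with *SFRP1* (0.69) and *NKD2* (0.40) higher and *ZNRF3* (−0.28) lower. In SNU-449 6 of 60 passed, beside 7.43% of all genes. *DACT1* fell by 2.99 ± 0.33 and *WNT3* by 0.63, and *WNT2B* (0.81), *PORCN* (0.41), *PYGO2* (0.36) and *LRP6* (0.32) rose. TGFβ + galunisertib against TGFβ gave 20 of 60 in PLC/PRF/5, below the 39.1% of all genes, 9 higher and 11 lower, with *MYC* at 1.66 and *TLE3* at −0.89 at the extremes. In SNU-449 it gave 14 of 60, beside 17.1% of all genes, 7 in each direction, with *WNT2B* at 1.29 and *DACT1* at −1.94. Against galunisertib, 9 of 60 passed in PLC/PRF/5, beside 8.55% of all genes, 4 higher, led by *APC* at 0.85, and 5 lower, led by *PYGO2* at −0.42. The authors' values, in which another probe stands for *PYGO2*, gave 0.029. In SNU-449 1 of 60 passed, *DACT1* at 2.04, beside 1.90% of all genes.

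**Figure D4:**
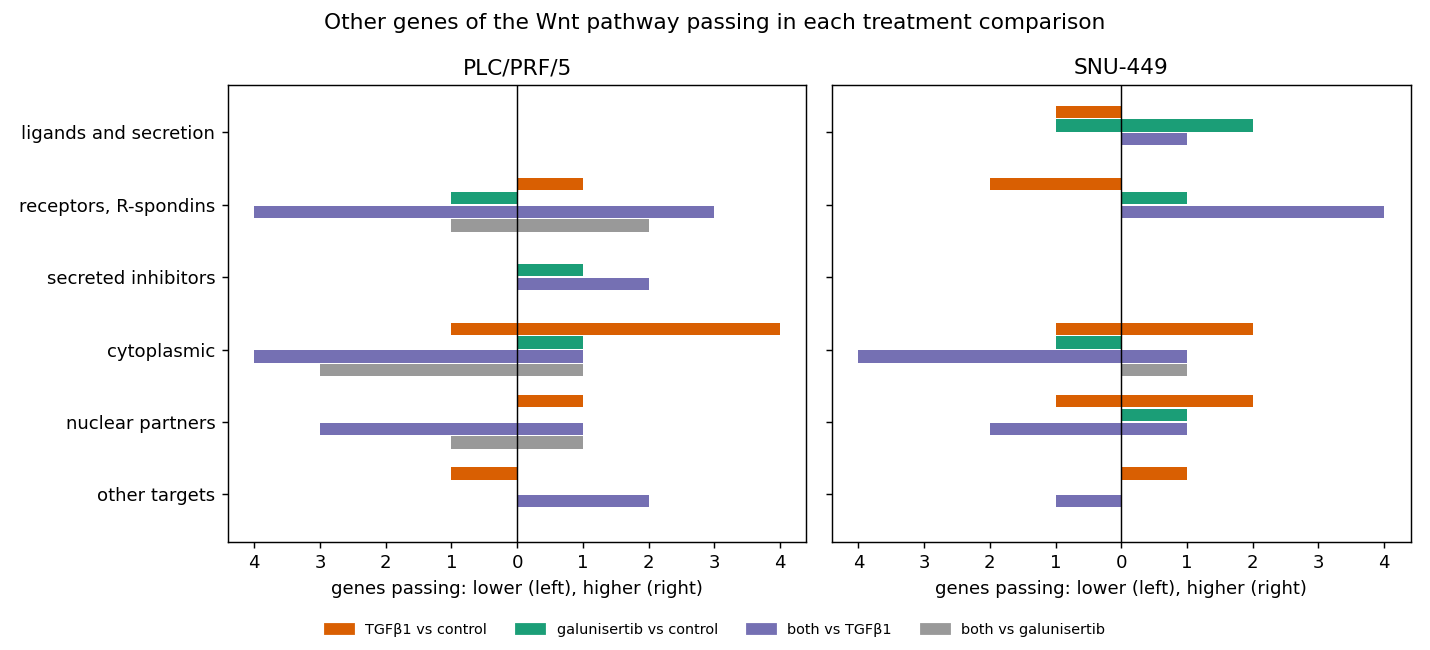
Number of listed pathway genes (horizontal axis) that passed higher or lower in each comparison, by list and line. In TGFβ + galunisertib against TGFβ, 20 of 60 genes passed in PLC/PRF/5 (39.1% of all genes did) and 14 of 60 in SNU-449 (17.1%), and against galunisertib 9 (8.55%) and 1 (1.90%).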

How the data were processed

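RNA of 24 cultures was measured on one-colour Agilent arrays. The authors scanned the arrays with Agilent Feature Extraction 10.7.3.1 (design build hg19), and the deposited intensity values are background-corrected signals per spot. The authors' normalized log2 values were also deposited and were used as an alternative. Outlier spots (111 to 216 an array) were left out, and spots of a probe averaged. Signals were divided by the 75th percentile of their array, floored at a log2 of −4.13 (the weakest scaled signal called well above background, as a median of the arrays) and log2-transformed. Genes were named through RefSeq (31104 probes) and LNCipedia (10719 probes), and 16378 probes without a name were left out. A gene was represented by its brightest probe and tested where all arrays of 1 group or more had that probe well above background. Group means were compared in R 4.3.3 with limma 3.58.1 (lmFit, contrasts, eBayes, two-sided), over the 12 arrays of a line or, between lines, all 24, with Benjamini-Hochberg adjustment over all genes. At least N-fold bounds used the weakest signal called well above background. Bounds, folds and SEs rest on 3 arrays a group, and the number of arrays limits the precision.

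The replicate number was also the slide (24 of 24 arrays). Same-numbered arrays deviated together (r above 0.1 in all 3 pairs) for TGFβ against control in PLC/PRF/5 (0.17 to 0.31) and SNU-449 (0.13 to 0.22), and for TGFβ + galunisertib against TGFβ in SNU-449 (0.10 to 0.27). The highest correlation between any pair of arrays was 0.998 (over 58015 probes), and no arrays were merged. Alternatives were the background correction (normexp, offset 50, on the median signals in place of the mean signals first planned), 4 scalings, the authors' values, the filter on dim probes, the floor, averaging the probes of a gene, the replicate block, the arrays in the fit, the methods' t-test, the study's limits, and leaving out each array. Genes named from the pathway lists were, per comparison, up to 5 in each direction with the largest difference among those passing. Up to 3 genes most like each passing gene were named, and 1 such gene is not reported here. The members, lists and tests were chosen with earlier results of these data known. The steps were tested on simulated data.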

Additional observations from a re-analysis of the deposited data

Results flagged for a closer look

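The TGFβ response of *DKK1* differed between the lines by −1.32 on the log2 scale (SNU-449 minus PLC/PRF/5, limma adjusted p = 7.91e-06), higher with TGFβ on 3 of 3 arrays in PLC/PRF/5 and lower on 3 of 3 in SNU-449. It passed under every alternative run. The TGFβ response of *TCF7* differed by 0.82 (adjusted p = 0.00367), whereas its other probe, limited by the floor in SNU-449, gave −0.38. The galunisertib response of *DKK1* differed by 0.80 (adjusted p = 0.00333), rising on 3 of 3 arrays in each line. This difference did not pass with array-median scaling or without scaling. Against TGFβ alone, TGFβ + galunisertib moved *DKK1* by −0.26 in PLC/PRF/5 and by 1.32 in SNU-449, with 3 of 3 arrays on opposite sides of the TGFβ arrays. The value in PLC/PRF/5 was −0.08 with array-median scaling (adjusted p = 0.796) and lost its call under most alternatives. The difference between these was not tested, and it shares the TGFβ arrays with the first.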

How the results depend on the processing

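Over 80 differences of the Wnt genes, 31 passed. Of 424 alternative values of these, 342 kept direction and call, 81 lost the call and 1 turned, and of 646 alternatives of the others 15 gained a call and 28 turned. Leaving out 1 array gave 204 further values of the passing differences, with 33 calls lost and 0 turned. The 31 include the basal differences of *WNT5A*, *WNT5B*, *LEF1* and *LGR5*, which had to differ. The kept values of these differences support nothing. Signals near the floor limit *WNT11*, *NKD1* and, in SNU-449, *AXIN1*, whose arrays differ in whether they are well above background. Other scalings moved the median of all genes by over 0.1. In the basal comparison it went from −0.06 to 0.28 with array-median scaling and to −0.20 with the percentile over probes well above background everywhere. For TGFβ in PLC/PRF/5 it went from −0.04 to 0.21, and in SNU-449 from 0.02 to 0.15, without scaling. For TGFβ + galunisertib against TGFβ it went from 0.06 to 0.23 (array median) or −0.11 (that percentile) in PLC/PRF/5, and from 0.01 to −0.15 (array median) or −0.17 (no scaling) in SNU-449.

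The number of the Wnt genes passing between the controls, 8, was 3 with probes well above background on every array, where only 3 could be tested. With TGFβ in PLC/PRF/5, 4 became 2 with normexp, array-median scaling, no scaling, no filter on dim probes or the methods' t-test, and 0 by the study's limits. With galunisertib in PLC/PRF/5, 1 became 0 with normexp, array-median scaling, no scaling, the percentile over probes well above background everywhere, quantile normalization, the authors' values, no filter, the replicate block, only the arrays compared, or the study's limits. For TGFβ + galunisertib against TGFβ in PLC/PRF/5, 3 became 1 with normexp or no scaling, 6 with that percentile and 0 by the study's limits, and against galunisertib 0 became 1 with probes well above background on every array. With TGFβ in SNU-449, 4 became 2 with array-median scaling or no scaling, and 0 by the study's limits. With galunisertib in SNU-449, 3 became 1 with array-median scaling, only the arrays compared or the study's limits, and 0 with the methods' t-test. For TGFβ + galunisertib in SNU-449, 5 became 1 against TGFβ by the study's limits, and against galunisertib 0 became 2 with normexp and 1 with probes well above background on every array. Between the lines, 2 genes with a different TGFβ response became 1 with normexp, array-median scaling, no scaling, the authors' values, averaged probes or the study's limits, and 1 gene for galunisertib became 0 with array-median scaling, no scaling or the study's limits.

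Leaving out 1 array at a time, the genes passing numbered 8 to 9 between the controls, 2 to 4 with TGFβ, 0 to 0 with galunisertib, and 2 to 3 and 0 to 0 with both against TGFβ and against galunisertib in PLC/PRF/5, and 3 to 4, 2 to 3, 4 to 5 and 0 to 2 in SNU-449. Between the lines they numbered 2 to 3 for TGFβ and 1 to 1 for galunisertib. With the replicate number as a block they were 8 between the controls, 3, 0, 3 and 0 in PLC/PRF/5, 4, 2, 5 and 0 in SNU-449 in the same order, and 3 and 1 between the lines.

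Among the Wnt genes, the 1 passing difference that turned was the TGFβ response of *TCF7* between the lines. It was −0.10 with the authors' values, in which the probe that is dim in SNU-449 stands for the gene. The turned values of *AXIN2* in PLC/PRF/5 with TGFβ were −0.39 (normexp), −0.47 (authors' values) and −0.20 (averaged probes), and with galunisertib −0.10 (normexp), −0.30 (authors' values), −0.10 (averaged probes), −0.32 (only the arrays compared) and −0.32 (the methods' t-test). All but the averaged values took its other probe. In PLC/PRF/5 with galunisertib *LEF1* turned to 0.039 (normexp), 0.071 (array median) and 0.031 (no scaling), and *TCF7* to −0.079 (percentile over probes well above background everywhere). With both agents *TCF7* turned to 0.065 against TGFβ (array median), and against galunisertib to 0.081 (normexp), 0.0069 (array median) and 0.092 (no scaling). There *DKK1* turned to 0.038, 0.084 and 0.17 under the same settings, and with normexp *AXIN2* to −0.11 and *LGR5* to 0.022. The pathway gene *PYGO2*, which had passed there at −0.42, turned to 0.029 with the authors' values (another probe). In SNU-449 *WNT11* turned to 0.024 with both against galunisertib (no scaling). For the galunisertib response between the lines *WNT11* turned to 0.044 (normexp), 0.12 (array median) and 0.11 (quantile), and *TCF7* to −0.016 (no scaling), −0.051 (authors' values) and −0.063 (averaged probes). Where not stated, the cause was not tested.

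Leaving out 1 array turned differences that had not passed. With TGFβ in PLC/PRF/5, *AXIN2* ranged from −0.033 to 0.22, *TCF7* from −0.041 to 0.078 and *AXIN1* from −0.023 to 0.14. With galunisertib there, *TCF7* ranged from −0.051 to 0.068 and *LEF1* from −0.10 to 0.043, and with both against galunisertib *DKK1* from −0.11 to 0.072. In SNU-449 *AXIN1* ranged from −0.62 to 0.089 with TGFβ, and *WNT11* from −0.12 to 0.67 with TGFβ, −0.15 to 0.64 with galunisertib, −0.27 to 0.10 with both against TGFβ and −0.24 to 0.16 against galunisertib. Between the lines *AXIN1* ranged from −0.68 to 0.034 for TGFβ and *WNT11* from −0.43 to 0.36 for galunisertib.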
